A study of Mus musculus with 8 samples.

Results

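The 9 genes described here, *Foxp2*, *Tbr1*, *Tshz2*, *Fezf2*, *Bcl11b*, *Etv1*, *Pou3f1*, *Cux2* and *Rorb*, encode transcription factors by which the layers of the cerebral cortex are told apart. They were taken by symbol from the gene list of the deposited count matrices, in which each symbol has 1 entry, and make up 9 of 31053 genes. Single-cell RNA sequencing (scRNA-seq) of 8 libraries was made by droplet capture: 2 from wild-type (WT) and 2 from *Setd1a*+/- mice for the prefrontal cortex (PFC), and the same for the striatum. All mice were C57BL/6N males without treatment, and each library pooled the tissue of 2 mice. The *Setd1a*+/- mice carry 1 allele with a frameshift made by CRISPR-Cas9 before the part of the gene that encodes the SET domain, in every cell from the germ line on, and the other allele is intact. The sample labels give an age of 8-10 weeks, which differs from the age in the study's text, and they name the striatal tissue NAc, where the study's text names dorsal and ventral striatum; the latter name is used.

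Projection neurons of the cortex are born in a fixed order and settle in layers, and a small set of transcription factors that repress each other fixes where their axons go. *Tbr1*, a T-box factor, and *Foxp2*, a forkhead factor, mark corticothalamic neurons of the deepest layer, while *Fezf2* and *Bcl11b* (also named Ctip2), both zinc finger factors, direct neurons above them toward targets below the cortex. *Etv1* (Er81) and the POU factor *Pou3f1* mark further deep layer neurons, *Tshz2* marks deep layer neurons that project nearby, and *Cux2* and *Rorb*, a cut homeobox factor and a nuclear receptor, mark the superficial and middle layers. Several of these factors also work outside the cortex, as *Bcl11b* and *Foxp2* do in the medium spiny neurons (MSNs) of the striatum.

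The authors named 7 excitatory neuron subtypes of the PFC by layer, deep (DL) or superficial (SL), and by a marker, and 5 of the 7 names hold a gene of this set. Subtype markers were compared over the 7 subtypes and cell type markers over all types, and all but *Etv1* and *Cux2* had their highest mean in the type they mark. The subtypes held 62 (DL-Pou3f1) to 743 (DL-Foxp2) of 2775 excitatory neurons. Because the cells were clustered on their expression, which includes these genes, differences between subtypes or cell types are given as a description and no test of them was made. The unit, CPM, is the number of unique molecular identifiers (UMIs) counted for a gene in a group of cells out of every 1000000 UMIs of that group and library. CPM were compared for the same gene between cells, not between genes. Annotated cells numbered 1508 to 2680 in a PFC library and 2495 to 4361 in a striatum library, with a median of 2302.5 to 3042 UMIs per cell over the 8 libraries. Excitatory neurons had a median of 6546 UMIs and oligodendrocytes 2056, so shares of cells with a UMI were also taken after each cell was thinned to 1000 UMIs. Shares of cells with a UMI of a factor are means of the library percentages, whereas joint shares and their products pool the cells of the libraries. Free RNA, read from droplets with 10 to 100 UMIs outside the annotation, is given as CPM for each factor in the PFC and for those compared in the striatum. At most 24 barcodes were shared by any pair of libraries. *Setd1a* itself was 11.1 and 12.5 CPM in the WT and 6.41 and 10.5 CPM in the *Setd1a*+/- excitatory neurons (log2 fold change -0.49, standard error 0.35), in the labelled direction without passing the test. The value was -0.14 without *Setd1a*+/- replicate 1 and -0.93 without *Setd1a*+/- replicate 2. In DL-Foxp2 the log2 fold change of *Setd1a*, -0.19, ranged from -0.76 to 0.57 with a library left out. Free RNA held 6.35 and 16.2 CPM of *Setd1a* in the WT and 5.30 and 10.8 CPM in the *Setd1a*+/- PFC libraries, around the excitatory levels.

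**Figure D1:**
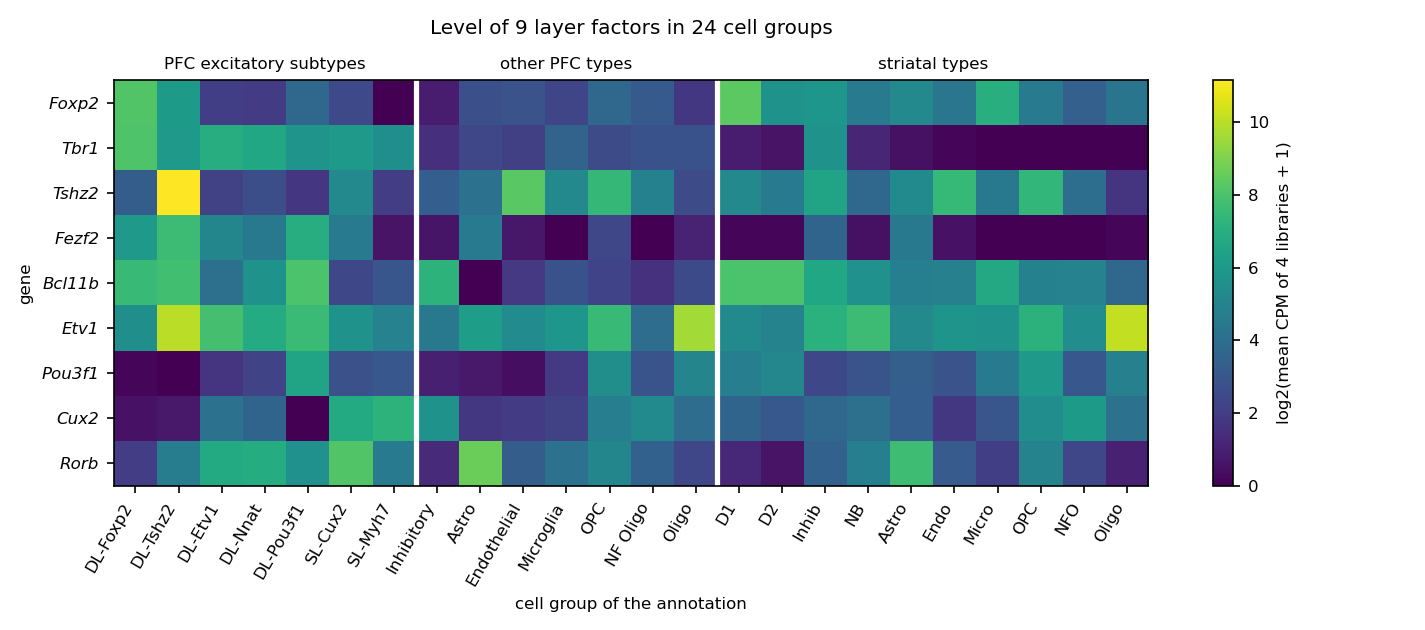
Mean level of each of the 9 factors (rows) in the 7 excitatory neuron subtypes, the other PFC cell types and the striatal cell types (columns), as log2(mean CPM + 1) with the mean taken over the 4 libraries of a tissue, brighter for higher levels. Among the excitatory subtypes *Tshz2* and *Etv1* peak together in DL-Tshz2. Over all columns *Foxp2* is highest in D1 MSNs, where *Bcl11b* is also high, *Etv1* in striatal oligodendrocytes and *Rorb* in PFC astrocytes.

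Among the excitatory subtypes, the corticothalamic factors *Foxp2* and *Tbr1* were both highest in DL-Foxp2. *Foxp2* (chr6:14901349-15441977, GRCm38, plus strand) was 246 and 257 CPM in the WT and 251 and 347 CPM in the *Setd1a*+/- DL-Foxp2 neurons, a mean of 275 CPM ± 47.9 (SD, n = 4). The next subtype was DL-Tshz2 at 46.3 to 91.2 CPM, so the libraries of the 2 subtypes did not overlap and their means differed 4.18-fold. Free RNA of the PFC held 9.43 to 35.0 CPM of *Foxp2*, under both, while DL-Etv1, DL-Nnat and SL-Cux2 had 7.73 CPM or less in every library. *Foxp2* had 0 UMIs in SL-Myh7 in all 4 libraries, where 3 UMIs would have been 5.80 to 15.5 CPM. DL-Foxp2 held 86.9 to 91.4% of the *Foxp2* UMIs of the excitatory neurons.

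*Tbr1* (chr2:61802930-61814114, plus strand) was spread more widely. Its levels in DL-Foxp2 were 258 and 246 CPM in WT libraries and 260 and 326 CPM in *Setd1a*+/- mice, above the DL-Etv1 levels of 91.8 and 162 CPM in WT libraries and 133 and 105 CPM in *Setd1a*+/- mice. DL-Nnat followed at 90.0 to 124 CPM and overlapped DL-Etv1. Every subtype kept a mean of at least 46.0 CPM of *Tbr1*, the lowest being SL-Myh7, so that *Tbr1* separated excitatory neurons from other cells as well as subtypes from each other: excitatory neurons held 97.1 to 97.9% of its UMIs among annotated PFC cells. Free RNA of the PFC held 98.3 to 161 CPM of *Tbr1*, a range that DL-Etv1 and DL-Nnat overlapped and the 4 lower subtypes lay under, whereas the PFC types other than excitatory neurons had means of 1.82 to 10.6 CPM. Interneurons of the PFC had 3 *Tbr1* UMIs in all. Of DL-Foxp2 cells, 71.6% had a *Foxp2* UMI (65.8 to 80.2% over the libraries), against 0.432% of oligodendrocytes and 0.334 to 2.81% of endothelial cells. A *Tbr1* UMI was found in 74.3% of DL-Foxp2 cells (64.4 to 85.1%), 0.897% of endothelial cells and 0.578 to 2.93% of oligodendrocytes. Median depths were 2056 UMIs in oligodendrocytes, 2368 in endothelial cells and 6299 in DL-Foxp2. After thinning to 1000 UMIs the shares in DL-Foxp2 were 25.2% and 22.6%.

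*Tshz2*, *Etv1* and *Fezf2* shared DL-Tshz2 as the excitatory subtype with their highest mean. *Tshz2* (chr2:169633013-170071816, plus strand) was nearly confined to its own subtype among excitatory neurons. It was 2276 and 2260 CPM in the WT and 1894 and 2670 CPM in the *Setd1a*+/- DL-Tshz2 neurons, 61.9-fold above the next subtype by mean, SL-Cux2 at 18.0 to 45.1 CPM. DL-Tshz2, with 304 cells, held 88.6 to 96.6% of the excitatory *Tshz2* UMIs. Of its cells, 98.5% had a *Tshz2* UMI (96.6 to 100% over the libraries) and 84.9% still had after thinning, against 0.911% of oligodendrocytes. Endothelial cells and OPCs of the PFC had a *Tshz2* UMI in 50.3% and 25.7% of cells (25.9% and 16.0% after thinning). The gene lies over the antisense genes *Gm26883* and *A630075F10Rik*.

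*Etv1* (chr12:38779380-38870484, plus strand) is named in another subtype, DL-Etv1, but was highest in DL-Tshz2. It was 1083 and 906 CPM in the WT and 1146 and 991 CPM in the *Setd1a*+/- DL-Tshz2 neurons. The DL-Etv1 neurons had 236 and 233 CPM in WT libraries and 254 and 208 CPM in *Setd1a*+/- mice, 4.43-fold lower by mean, with no overlap of libraries. DL-Pou3f1, at 97.4 to 261 CPM, overlapped DL-Etv1. The name DL-Etv1 therefore does not mark the excitatory neurons with the most *Etv1*. Of DL-Tshz2 cells, 92.8% had an *Etv1* UMI (88.6 to 97.0% over the libraries, and 59.2% after thinning), and of DL-Etv1 cells 58.9% (54.9 to 62.7%, and 18.5%).

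*Fezf2* (chr14:12342094-12348189, minus strand) was graded rather than confined. In DL-Tshz2 it was 256 and 123 CPM in WT libraries and 252 and 178 CPM in *Setd1a*+/- mice. DL-Pou3f1, with 58.4 to 196 CPM, overlapped it, and DL-Foxp2 followed at 36.0 to 84.6 CPM. DL-Etv1, DL-Nnat and SL-Cux2 were at 14.4 to 47.5 CPM, around the 23.6 to 33.2 CPM of free RNA. The lowest was SL-Myh7, with 1 *Fezf2* UMI over all 194 cells. In 3 of the 4 libraries the level in SL-Myh7 was therefore 0.

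The promoters of these 3 genes are shown because the genes share their leading subtype and differ in base content. RefSeq entries of GRCm38.p6 give the 250 bases before each start of transcription, 5′ to 3′ on the gene's strand, with the dinucleotide CG in capitals, at chr2:169632259-169632508 (plus) for *Tshz2*, chr14:12345866-12346115 (minus) for *Fezf2*, and chr12:38779832-38780081 and chr12:38783461-38783710 (both plus) for 2 starts of *Etv1*:
Tshz2: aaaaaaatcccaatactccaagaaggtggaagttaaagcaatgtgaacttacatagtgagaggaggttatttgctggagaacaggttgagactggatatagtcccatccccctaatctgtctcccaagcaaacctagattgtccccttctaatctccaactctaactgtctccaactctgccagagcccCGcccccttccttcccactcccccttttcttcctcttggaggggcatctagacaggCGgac
Fezf2: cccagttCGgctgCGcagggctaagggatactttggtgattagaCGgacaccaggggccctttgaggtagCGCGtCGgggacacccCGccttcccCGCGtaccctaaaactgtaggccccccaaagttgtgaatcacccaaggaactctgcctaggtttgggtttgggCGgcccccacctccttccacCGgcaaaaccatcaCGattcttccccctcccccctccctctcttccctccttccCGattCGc
Etv1, first start: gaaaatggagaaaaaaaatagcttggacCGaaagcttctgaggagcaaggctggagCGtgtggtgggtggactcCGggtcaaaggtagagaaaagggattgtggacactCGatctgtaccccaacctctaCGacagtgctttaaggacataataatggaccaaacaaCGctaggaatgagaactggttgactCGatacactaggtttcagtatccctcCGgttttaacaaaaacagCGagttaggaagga
Etv1, second start: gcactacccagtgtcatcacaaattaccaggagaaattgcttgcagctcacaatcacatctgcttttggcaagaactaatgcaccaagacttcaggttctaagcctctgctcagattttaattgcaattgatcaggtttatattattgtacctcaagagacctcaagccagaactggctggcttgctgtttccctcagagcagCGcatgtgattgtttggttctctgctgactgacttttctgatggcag
The *Fezf2* stretch and both *Etv1* stretches lie inside the gene bounds given above, which come from another annotation (GENCODE). Their RefSeq starts thus differ from the outer starts of those bounds, and the counts hold for the RefSeq starts alone. The *Tshz2* promoter held 2 CG and the *Fezf2* promoter 14, and the *Etv1* promoters held 9 and 1, beside a median of 6 over 32851 RefSeq promoters of the same length. The ratio of observed to expected CG was 0.142 for *Tshz2*, 0.635 for *Fezf2*, and 0.699 and 0.0817 for *Etv1*, against a median of 0.374. The letters GGGCGG (searched on both strands) occurred in the *Tshz2* and *Fezf2* promoters and in 32.7% of all promoters. TATAAA, searched in the same way, occurred in the second *Etv1* promoter, where the printed strand reads TTTATA, and in 12.4% of all promoters. Of the other members in the table, *Tbr1* had 5 CG, *Bcl11b* 9, *Cux2* 3 and 40, and *Rorb* 4 and 18 at 2 starts each. The 3 genes were picked for their shared leading subtype and differing base content, so this contrast is not a result. Which *Etv1* start these cells use was not tested. Promoters were available for 7 of the 9 members.

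*Bcl11b* (chr12:107910403-108003602, minus strand) was shared by 3 deep layer subtypes and low in DL-Etv1. Its levels were 285 and 343 CPM in WT libraries and 276 and 117 CPM in *Setd1a*+/- DL-Pou3f1 neurons, 165 to 264 CPM in DL-Tshz2 and 149 to 234 CPM in DL-Foxp2, all overlapping. DL-Nnat was at 41.4 to 58.6 CPM and DL-Etv1 at 7.73 to 22.9 CPM, both without overlap with the subtype above. Free RNA of the PFC held 42.1 to 65.5 CPM of *Bcl11b*, so DL-Nnat lay around it and DL-Etv1 under it. *Bcl11b* is therefore low in the deep layer subtype that *Etv1* names, and the superficial subtypes had no more than 10.2 CPM in any library. DL-Foxp2 held 50.3 to 54.8% of the excitatory *Bcl11b* UMIs.

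*Pou3f1* (chr4:124656807-124660655, plus strand, antisense *Gm2164*) marked its own small subtype among the excitatory neurons. It was 50.3 and 77.4 CPM in WT libraries and 160 and 77.9 CPM in *Setd1a*+/- DL-Pou3f1 neurons, from 7 to 35 cells per library, and 12.8-fold lower in the next subtype, SL-Myh7, by mean. It had 0 UMIs in DL-Tshz2 in all 4 libraries, where 3 UMIs would have been 6.62 to 19.8 CPM. Of DL-Pou3f1 cells, 42.1% had a *Pou3f1* UMI (25.0 to 83.3% over the libraries), against 0.0877% of endothelial cells, 6.93% of OPCs and 6.78% of mature oligodendrocytes in the PFC. After thinning the mean was 2.86%, from 11.4% in WT replicate 2 and 0% in each of the other 3 libraries. Thinned shares were 2.66 to 6.97% in PFC OPCs and 2.40 to 5.30% in mature oligodendrocytes of the PFC. At equal depth the mean of DL-Pou3f1 thus lay within the ranges of both glial types.

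**Figure D2:**
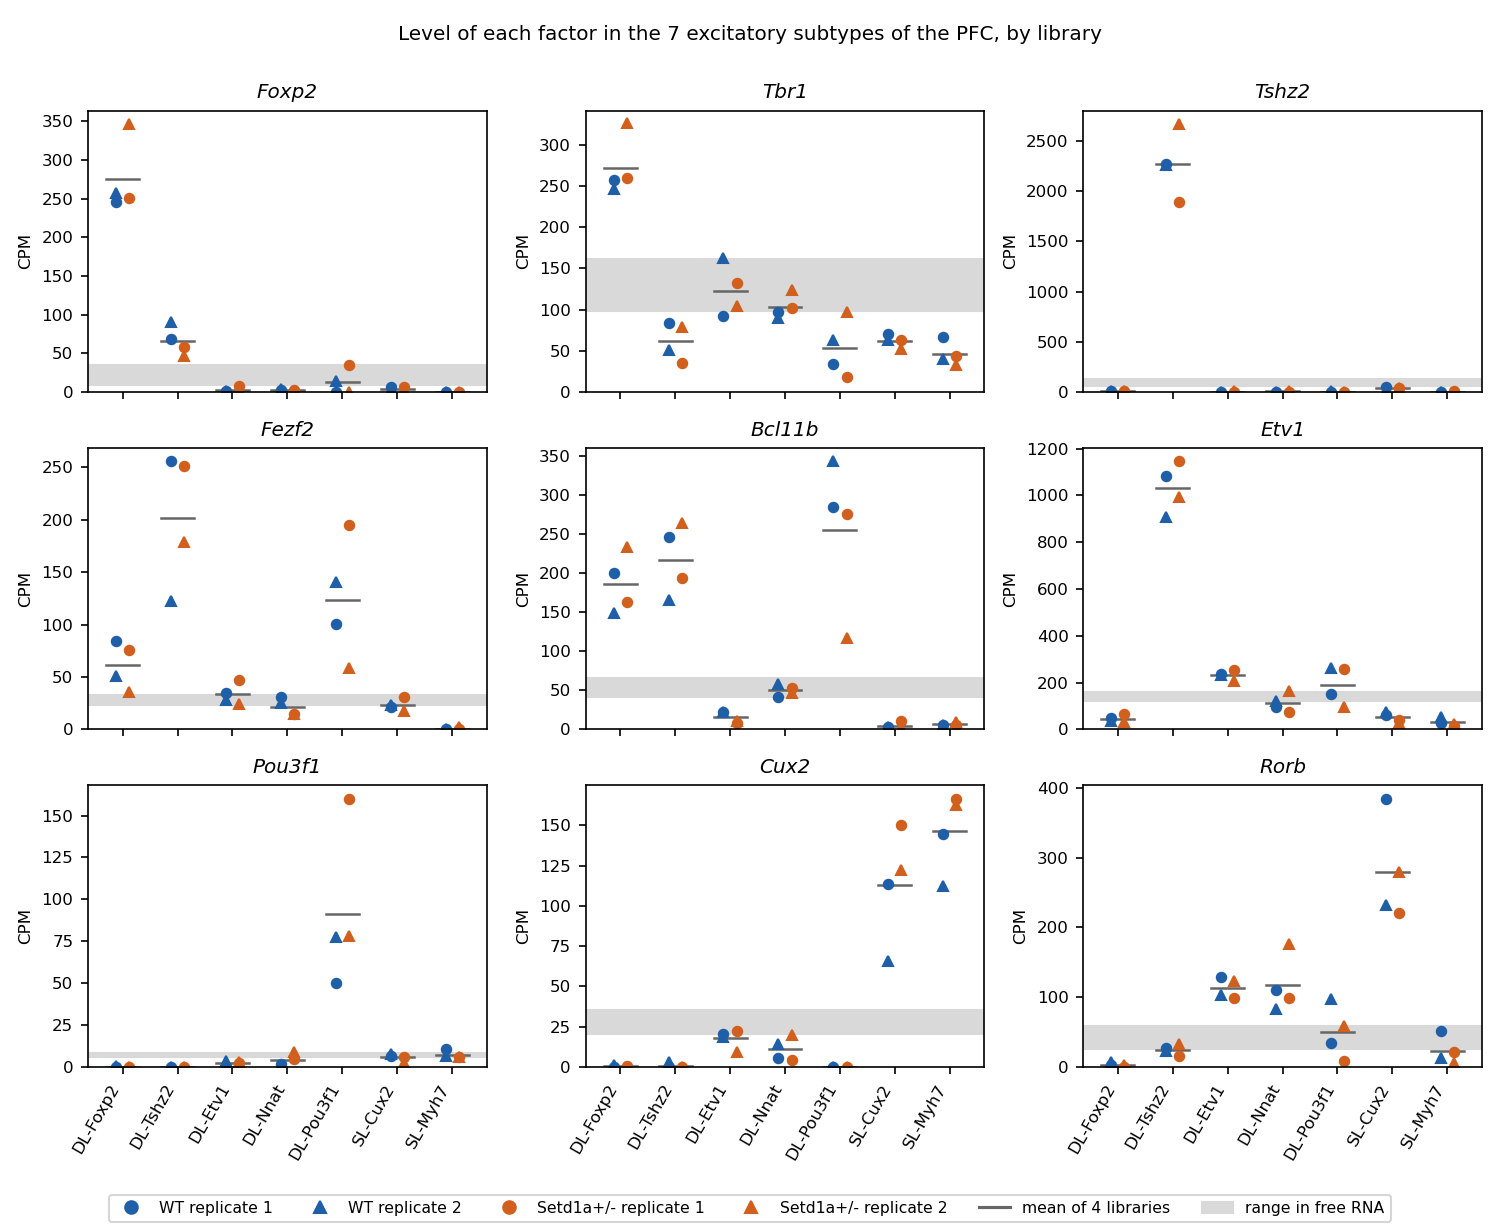
CPM of each factor in the 7 excitatory neuron subtypes, 1 panel per factor, with a point for each WT (blue) and *Setd1a*+/- (orange) library, a line at the mean of 4 and the range of PFC free RNA as a gray band. The vertical axes differ between panels. *Tshz2* is 1894 CPM or more in every DL-Tshz2 library and at most 45.1 CPM in any other subtype, whereas *Fezf2* and *Bcl11b* overlap between their leading subtypes.

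The superficial factors *Cux2* and *Rorb* split the 2 SL subtypes. *Cux2* (chr5:121856366-122050102, minus strand, antisense *Gm3970* and *Gm15637*) was 145 and 112 CPM in WT libraries and 166 and 162 CPM in *Setd1a*+/- SL-Myh7 neurons. In SL-Cux2, the subtype it names, it was 114 and 66.0 CPM in WT libraries and 150 and 122 CPM in *Setd1a*+/- mice, overlapping SL-Myh7. Both lay above every deep layer subtype, of which DL-Etv1 was highest at 9.52 to 22.1 CPM. DL-Pou3f1 had 0 *Cux2* UMIs in all 4 libraries, where 3 UMIs would have been 14.5 to 58.4 CPM.

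*Rorb* (chr19:18930605-19111196, minus strand) was 385 and 233 CPM in WT libraries and 221 and 280 CPM in *Setd1a*+/- SL-Cux2 neurons. SL-Myh7, equal to SL-Cux2 or above it in *Cux2*, had 5.80 to 51.8 CPM of *Rorb*. DL-Nnat and DL-Etv1, at 83.0 to 177 and 99.4 to 128 CPM, came between and overlapped each other. SL-Myh7 was thus *Cux2*-high and *Rorb*-low, SL-Cux2 was high in both, and DL-Etv1 and DL-Nnat carried *Rorb* with little *Cux2*. Of SL-Cux2 cells, 65.3% had a *Rorb* UMI (57.9 to 80.3% over the libraries) and 22.7% after thinning, against 0.938% of PFC interneurons and 52.2% of PFC astrocytes. *Cux2* UMIs were found in 49.7% of SL-Myh7 cells (13.3% after thinning), in 22% of PFC interneurons (3.90% after thinning) and in 0.801% of endothelial cells.

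Single cells showed which factors came together. The shares here pool the cells of 4 libraries, whose depths differ, and no doublet caller was run. In DL-Tshz2, 282 of 304 cells (92.8%) had UMIs of both *Tshz2* and *Etv1*, 172 (56.6%) of *Tshz2* and *Fezf2*, and 101 (33.2%) of *Fezf2* and *Bcl11b*. In DL-Foxp2, 400 of 743 cells (53.8%) had both *Foxp2* and *Tbr1*, and 324 (43.6%) both *Foxp2* and *Bcl11b*. In DL-Etv1, 39.9% of cells had both *Tbr1* and *Etv1*. Of 62 DL-Pou3f1 cells, 23 (37.1%) had both *Bcl11b* and *Pou3f1*. In SL-Cux2, 139 of 626 cells (22.2%) had both *Cux2* and *Rorb*.

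Factors of deep and superficial layers met in a cell to a degree that depended on the pair. Over all 2775 excitatory neurons, *Bcl11b* and *Cux2* were both counted in 20 cells (0.721%), where the product of their shares is 3.96%. *Foxp2* and *Cux2* were both counted in 10 cells (0.360%, product 2.99%), and *Bcl11b* and *Rorb* in 61 (2.20%, product 8.54%). *Tbr1* and *Rorb* were both counted in 350 cells (12.6%, product 13.7%), 130 of them among the 383 DL-Etv1 cells, and *Etv1* and *Rorb* in 305 (11%, product 9.56%). Within DL-Foxp2 the product for *Foxp2* and *Tbr1* was 49.3%, below the joint share given above. Within DL-Tshz2 the product for *Tshz2* and *Etv1* was 92.2%. Nearly every cell there had a *Tshz2* UMI, so the joint share could hardly differ from this product.

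The list of 30 other regulators of projection neurons named 1 leading gene for each subtype by its ratio to the next subtype. *Zfpm2* (Fog2) led DL-Foxp2 at a mean of 58.3 CPM, 7.02-fold above the next. *Nr4a2* led DL-Etv1 at 74.0 CPM and 2.53-fold, *Bhlhe22* SL-Myh7 at 76.3 CPM and 1.85-fold, and *Rora*, a nuclear receptor related to *Rorb*, SL-Cux2 at 107 CPM and 1.65-fold. *Ldb2* led DL-Pou3f1 at 253 CPM and 1.57-fold, and *Bcl11a*, the paralog of *Bcl11b*, led DL-Tshz2 at 260 CPM and 1.5-fold. DL-Nnat, whose name holds no member, had only *Id2* at 339 CPM and a ratio of 1.03.

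The genes most like each factor were found by the Pearson correlation of log2(mean CPM + 1) over 24 cell types and subtypes of both tissues, among 7780 genes. These values are a description over types that share libraries. *Tbr1* was closest to *Slc17a7* (r = 0.981), *Neurod6* (0.977) and *Neurod2* (0.975), genes of glutamatergic neurons in general. *Rorb* was closest to *Lhx2* (0.885), *Slc1a2* (0.787), the glutamate transporter of astrocytes, and *Ccdc80* (0.784), all 3 highest in PFC astrocytes. *Fezf2* was closest to *Pamr1* (0.864), *Myl4* (0.844) and *Dkk3* (0.832), and *Bcl11b* to *Nrsn2* (0.854), *Sez6* (0.833) and *Hs6st2* (0.822). *Foxp2* was closest to *Syt6* (0.768), *Scn4b* (0.712) and *Ppp1r1b* (0.700), which encodes the MSN protein DARPP-32, all 3 highest in D2 MSNs. *Tshz2* had *Asl* (0.740), *Ntn1* (0.731) and *Pth1r* (0.723). *Cux2* had *Atf6b* (0.696), *Smim7* (0.680) and *Ngb* (0.674). The likeness was lowest for *Etv1*, with *Cyp2j12* (0.677), *Itpk1* (0.667) and *Acaca* (0.637), and for *Pou3f1*, with *Ipo13* (0.676), *Gng7* (0.675) and *Dusp19* (0.672).

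Outside excitatory neurons the set was far from silent. Excitatory neurons held 92.5 to 97.6% of the *Foxp2* and 90.3 to 98.1% of the *Fezf2* UMIs of annotated PFC cells. They held only 32.3 to 57.8% of the *Etv1*, 11.5 to 39.8% of the *Pou3f1* and 56.5 to 69.2% of the *Tshz2* UMIs.

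*Etv1* was high in mature oligodendrocytes of both tissues. PFC oligodendrocytes had 861 and 675 CPM in WT libraries and 781 CPM in both *Setd1a*+/- libraries, above DL-Etv1 neurons, while free RNA held 122 to 158 CPM. Striatal oligodendrocytes had 1110 and 1140 CPM in WT libraries and 1269 and 894 CPM in *Setd1a*+/- mice. Newly formed oligodendrocytes had only 8.93 to 20.4 CPM in the PFC and 21.9 to 63.5 CPM in the striatum, and oligodendrocyte progenitor cells (OPCs) 166 to 207 and 86.3 to 207 CPM. Newly formed cells were thus the low point between progenitors and mature cells, as a description of named clusters. A UMI of *Etv1* was found in 74.7% of PFC oligodendrocytes and 51.9% after thinning, against 4.41% of newly formed ones.

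*Rorb* was a gene of astrocytes as much as of SL-Cux2 neurons. PFC astrocytes had 468 and 352 CPM in WT libraries and 299 and 472 CPM in *Setd1a*+/- mice, and striatal ones 254 and 224 CPM in WT libraries and 214 and 138 CPM in *Setd1a*+/- mice. Free RNA held 26.0 to 58.3 CPM in the PFC and 2.90 to 10.4 in the striatum. After thinning, 32.3% of PFC astrocytes had a *Rorb* UMI, more than the 22.7% of SL-Cux2 neurons.

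*Tshz2* was counted in vascular cells and progenitors. PFC endothelial cells had 331 and 278 CPM in WT libraries and 352 and 287 CPM in *Setd1a*+/- mice, and PFC OPCs 154 to 198 CPM, beside 63.7 to 133 CPM in free RNA. *Pou3f1* was counted in mature oligodendrocytes and OPCs. Mature oligodendrocytes had 30.1 and 24.6 CPM in WT libraries and 47.2 and 28.6 CPM in *Setd1a*+/- mice in the PFC, and 20.3 to 44.1 CPM in the striatum, below free RNA in 3 of the 4 striatal libraries. *Pou3f1* in OPCs was 36.0 to 58.9 CPM in the PFC, where free RNA held 5.90 to 8.52 CPM, and 38.0 to 90.0 CPM in the striatum, where it held 23.7 to 34.4. Newly formed oligodendrocytes of the PFC had 1 or 2 *Pou3f1* UMIs a library (2.98 to 10.2 CPM, around free RNA), and those of the striatum 4, 0, 1 and 0 (0 to 22.7 CPM, below it). *Cux2* was 43.0 to 60.0 CPM in PFC interneurons against 20.6 to 35.4 in free RNA. *Fezf2* in astrocytes was 8.54 to 36.2 CPM in the PFC, around its free RNA of 23.6 to 33.2 CPM, but 10.6 to 30.6 CPM in the striatum, where free RNA held 0.539 to 1.74 CPM.

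**Figure D3:**
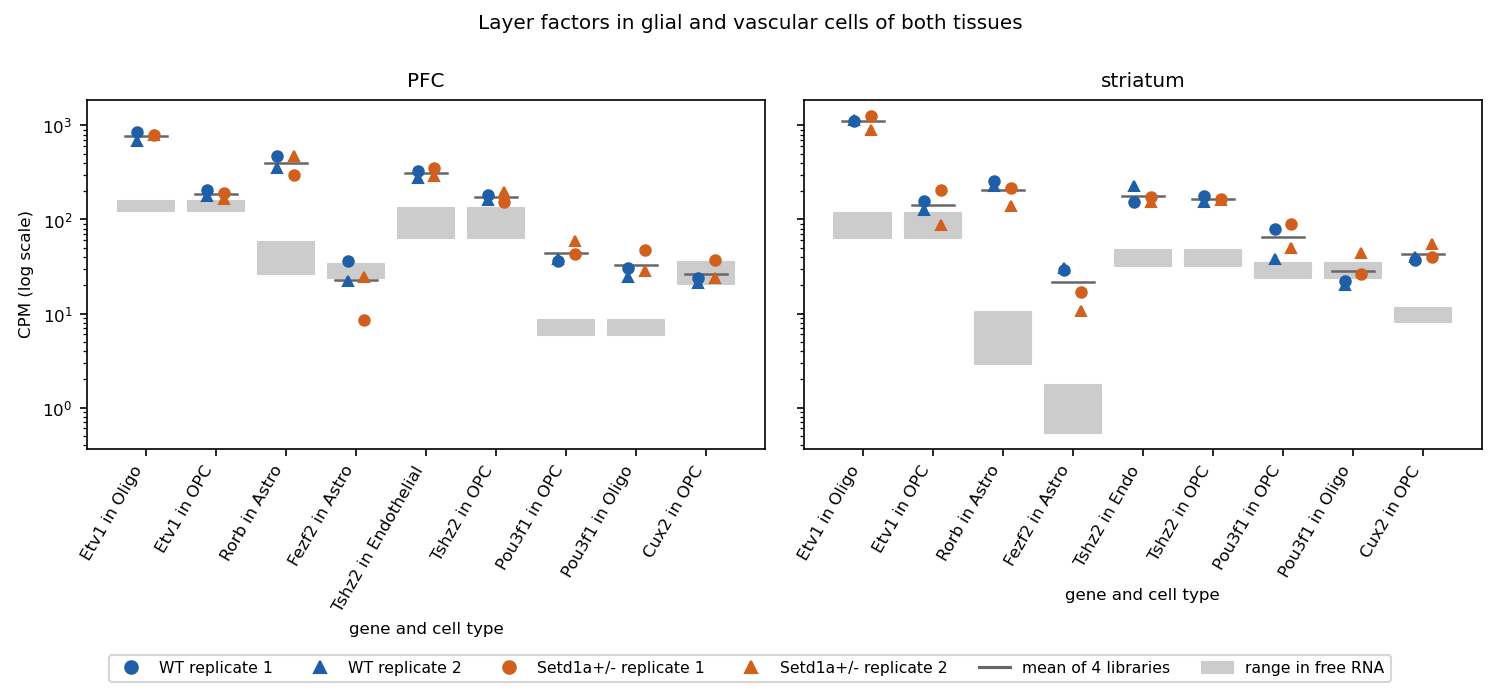
CPM on a log axis of 6 factors in glial and endothelial cells of the PFC (left) and the striatum (right), with 1 point per library, a line at the mean of 4 and the range of free RNA in the same tissue as a gray box. *Etv1* in oligodendrocytes (675 to 1269 CPM) and *Rorb* in astrocytes (138 to 472 CPM) lie above their free RNA in every library.

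In the striatum *Foxp2* separated the 2 MSN classes and *Bcl11b* did not. *Foxp2* was 299 and 312 CPM in the WT and 359 and 308 CPM in the *Setd1a*+/- D1 MSNs, and 42.2 and 50.7 CPM in WT libraries and 65.6 and 45.8 CPM in *Setd1a*+/- D2 MSNs. The D2 level lay below the free RNA of the same tissue, 83.8 to 114 CPM. *Bcl11b* was 262 CPM in both WT and 250 and 248 CPM in the *Setd1a*+/- D1 MSNs, and 230 to 270 CPM in D2 MSNs, with free RNA at 209 to 252 CPM. *Etv1* was 155 to 239 CPM in the cluster of neuroblasts, above its free RNA of 63.0 to 117 CPM.

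The striatal cluster named Inhib held excitatory neuron genes. Its 4 excitatory markers (*Slc17a7*, *Neurod6*, *Nrn1*, *Sv2b*) summed to 417 to 579 CPM per library, all 4 detected, against 14.3 to 51.8 CPM in PFC interneurons. *Tbr1* was 34.5 to 63.6 CPM in this cluster, with 5.39 to 14.5 CPM in free RNA. Of its 821 cells, 131 had a *Tbr1* or *Fezf2* UMI, and 128 of those had UMIs of *Slc17a7* or *Neurod6* while 21 had UMIs of *Gad1* or *Gad2*, the enzymes that make GABA. The other cells of the cluster had *Gad1* or *Gad2* in 83.8 to 92.5% per library. Without the cells holding *Slc17a7* or *Neurod6*, *Tbr1* was 1.17 and 0 CPM in WT libraries and 0 and 8.65 CPM in *Setd1a*+/- mice and *Fezf2* was 0 in all, whereas *Foxp2* remained at 56.9 to 67.8, *Tshz2* at 104 to 136 and *Etv1* at 154 to 219 CPM.

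The tissues were compared within 7 cell types that both annotations hold, with edgeR's quasi-likelihood test over 8 libraries and genotype as a covariate. Dissection and library preparation go with the tissue and cannot be told apart from it. At an FDR under 0.05 and a fold above 1.5, 11 of 29 tests of members were called, 4 higher and 7 lower in the PFC (37.9%). Of all genes, 7.37% were called, 2.72% higher and 4.65% lower in the PFC. Among the lower calls, the PFC held 1 and 3 *Foxp2* UMIs in inhibitory neurons and microglia. It held 3 *Tbr1* UMIs in inhibitory neurons, and 4 and 9 *Bcl11b* UMIs in microglia and endothelial cells. These tests passed the count filter through the striatal libraries, so entry and outcome were not independent. The 37.9% is therefore no test of the set against all genes. With the replicate number as a block 18 members were called, from a larger set of tests.

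Inhibitory neurons gave 5 of the 11 calls. *Cux2* was 43.0 to 60.0 CPM in the PFC and 7.39 to 20.7 CPM in the striatum (log2 fold change 1.90, standard error 0.30, FDR 0.000508 from edgeR). In the other direction, *Foxp2* had 1 UMI in the PFC against 253 in the striatum (0 to 3.31 and 48.1 to 66.6 CPM), a ratio of 92.1 with a 95% counting interval of 16.4 to 3652. The striatal level lay below the free RNA of that tissue, 83.8 to 114 CPM, in every library. *Foxp2* in these striatal cells was at 0.448 to 0.687 of its level in free RNA, and *Pou3f1* at 0.0358 to 0.255 of its own. The 6 MSN markers (*Drd1*, *Tac1*, *Pdyn*, *Drd2*, *Penk*, *Adora2a*) summed to 308 to 443 CPM in the striatal cluster, all 6 detected, and to 317 to 700 CPM in PFC interneurons, 5 detected and *Adora2a* at 0. *Etv1* was 19.9 to 25.9 CPM in the PFC and 112 to 153 CPM in the striatum, and *Tshz2* 2.86 to 23.9 and 72.6 to 103 CPM (log2 fold changes -2.70 and -3.15, standard errors 0.22 and 0.36, FDR 1.14e-06 and 2.78e-05 from edgeR). *Tbr1*, with 3 against 231 UMIs, was called lower in the PFC, and this call rests on the cells described above, since too few UMIs were left for a test without those holding *Slc17a7* or *Neurod6*. *Foxp2*, *Tshz2*, *Etv1* and *Cux2* were called without those cells as well, with log2 fold changes of -6.18, -4.01, -3.29 and 1.51. Striatal *Foxp2* was then 56.9 to 67.8 CPM, still below its free RNA, and the part of MSN RNA in this call was not tested. Of all genes, 12.2% were called in inhibitory neurons.

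Astrocytes and endothelial cells gave 4 calls, where 12.5% and 6.88% of genes were called. *Rorb* was 299 to 472 CPM in PFC and 138 to 254 CPM in striatal astrocytes (log2 fold change 0.99, standard error 0.23, FDR 0.00793 from edgeR), and without *Setd1a*+/- PFC replicate 2 its FDR was 0.0637. *Etv1* was 51.5 to 94.0 CPM in PFC and 24.5 to 53.1 CPM in striatal astrocytes (log2 fold change 1.10, standard error 0.32, FDR 0.0306 from edgeR), below its free RNA in the PFC. The *Etv1* call was lost with 5 of the 8 libraries left out in turn and under DESeq2 (FDR 0.0683). *Tshz2* in endothelial cells was 278 to 352 CPM in the PFC and 153 to 228 CPM in the striatum (log2 fold change 0.79, standard error 0.16, FDR 0.0111 from edgeR). Without WT PFC replicate 1 or WT striatum replicate 1 its FDR was 0.0623 or 0.0515. *Bcl11b* in endothelial cells was 1.5 to 4.82 CPM in the PFC and 12.7 to 40.1 CPM in the striatum (FDR 0.00241 from edgeR).

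Microglia gave the remaining 2, where 22.4% of genes were called. *Foxp2* had 3 UMIs in the PFC and 89 in the striatum, and *Bcl11b* 4 and 74, ratios of 41.0 (13.6 to 203) and 25.6 (9.57 to 96.3) with FDR 0.00110 and 0.000869 from edgeR. The 6 MSN markers moved with these 2 factors. In striatal microglia all 6 were detected and summed to 1388 to 1987 CPM, and in PFC microglia 4 of 6 summed to 4.88 to 21.6 CPM, with *Drd1* and *Drd2* at 0. In endothelial cells they summed to 227 to 657 CPM in the striatum, all 6 detected, and to 25.5 to 27.8 CPM in the PFC, with *Drd1*, *Tac1*, *Pdyn* and *Drd2* at 0. Free RNA of the striatum held 83.8 to 114 CPM of *Foxp2* and 209 to 252 CPM of *Bcl11b*, beside 89.3 to 179 and 80.3 to 149 CPM in striatal microglia, so *Bcl11b* in striatal microglia and endothelial cells lay below it in every library. The part of MSN RNA in these calls was not tested. *Foxp2* in endothelial cells (log2 fold change -1.97, FDR 0.139) and *Bcl11b* in OPCs (-2.41, FDR 0.0872) were not called by edgeR but were with the replicate block (FDR 0.00119 and 0.00728), and there too the striatal cells had the higher MSN marker sum, 248 to 377 against 62.6 to 84.9 CPM in OPCs.

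*Etv1* in oligodendrocytes, its highest type in the striatum, was 1.48-fold higher in the striatum and not called (log2 fold change -0.57, standard error 0.17, FDR 0.100 from edgeR). *Bcl11b* in inhibitory neurons was 111 to 175 CPM in the PFC and 80.1 to 119 CPM in the striatum and was not called (0.50, FDR 0.0994 from edgeR). OPCs, newly formed and mature oligodendrocytes had 0 called members by edgeR, with 0.26, 0.0604 and 2.89% of genes called. At an unadjusted p under 0.05 they had 3, 0 and 1 members and 13.9, 9.57 and 17.1% of genes.

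**Figure D4:**
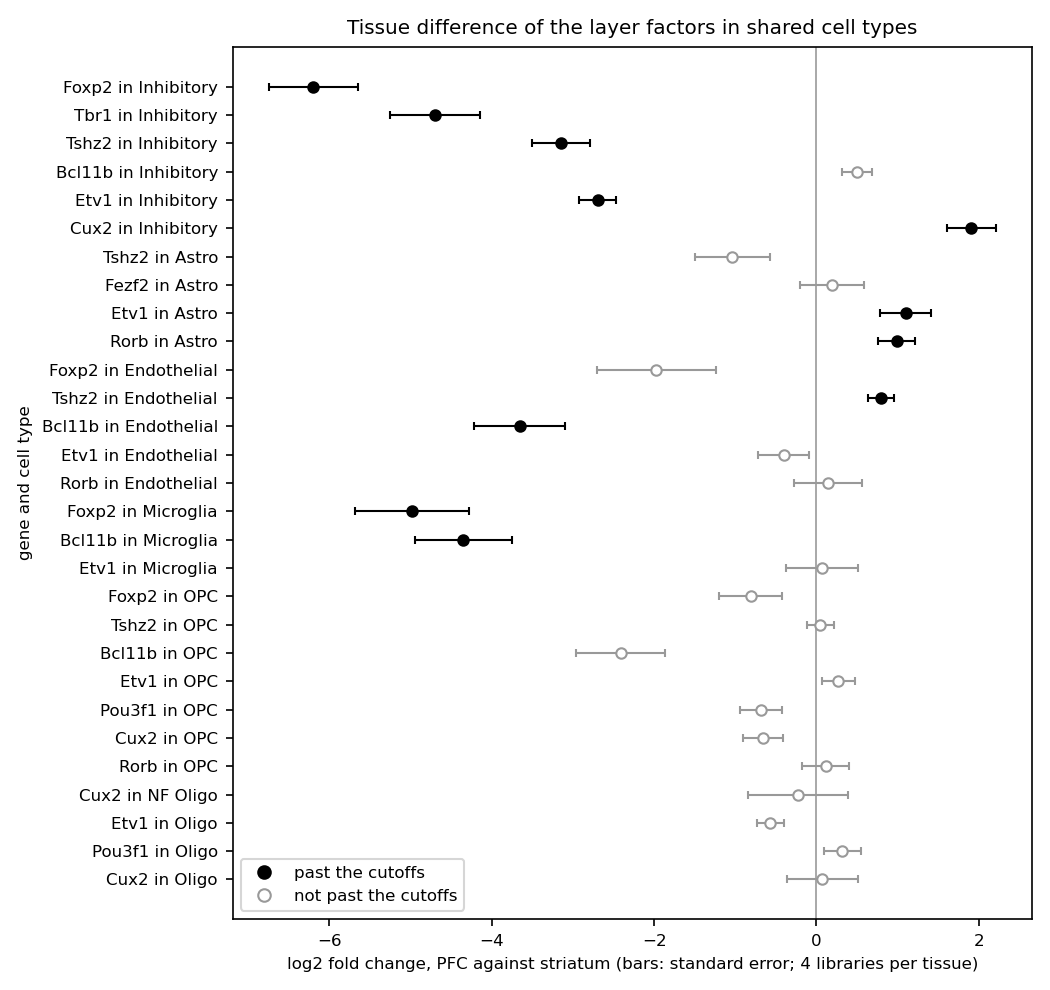
Log2 fold change between PFC and striatum of each tested factor in the 7 shared cell types, with bars of 1 standard error, positive where the PFC is higher, and called values marked. *Foxp2* in inhibitory neurons and microglia and *Bcl11b* in microglia and endothelial cells lie far to the striatal side.

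No factor passed the threshold between genotypes. In the excitatory neurons as a whole all 9 were tested, and 0 were called at an FDR under 0.05 and a fold above 1.5 by edgeR, as were 0 of 11665 genes (0%). At an unadjusted p under 0.05 there were 1 factor and 158 genes (1.35%), and DESeq2 also called 0 factors, here and in each genotype comparison that follows. An exact permutation test of 2 against 2 libraries could not go below p = 0.33, and none was used for these calls.

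*Cux2* came nearest. It was 30.5 and 26.2 CPM in the WT and 48.1 and 57.9 CPM in the *Setd1a*+/- excitatory neurons, without overlap (log2 fold change 0.92, standard error 0.21, FDR 0.9998 from edgeR, and 0.304 with the replicate block). Superficial subtypes made up 21.7 and 28.5% of the WT and 28.3 and 40.5% of the *Setd1a*+/- excitatory neurons. With every subtype given equal weight the log2 ratio was 0.40. Within SL-Cux2 the log2 fold change was 0.66 (0.29) and within SL-Myh7 0.39 (0.29), with standard errors in parentheses and neither past the threshold.

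*Bcl11b* was 102 and 74.5 CPM in the WT and 80.0 and 51.4 CPM in the *Setd1a*+/- excitatory neurons (log2 fold change -0.41, standard error 0.25). *Foxp2* was 77.1 and 74.7 CPM in WT libraries and 77.0 and 42.0 CPM in *Setd1a*+/- mice. The low *Foxp2* value belongs to the library in which DL-Foxp2 made up 14.3% of excitatory neurons (95% Wilson interval 11.4 to 17.7%, counting error alone), against 29.2 to 29.5% in the other 3. *Tshz2* was 283 and 118 CPM in WT libraries and 188 and 129 CPM in *Setd1a*+/- mice, where DL-Tshz2 made up 19.0, 7.40, 14.6 and 7.64% of excitatory neurons in that order. Since these subtypes hold most of the UMIs of the gene that names them and were clustered on it, level and share are not independent, and the part of the shares in the levels was not tested. The remaining factors had log2 fold changes of -0.15 (*Tbr1*), -0.23 (*Fezf2*), -0.09 (*Etv1*), 0.50 (*Pou3f1*) and 0.08 (*Rorb*). Their standard errors were 0.18, 0.46, 0.24, 0.46 and 0.28 in that order. All of them but *Pou3f1* changed sign with every subtype given equal weight. The libraries of the genotypes did not overlap for 2 of 9 factors, as for 23.6% of all genes. That count takes no account of the pairing, and with the replicate block edgeR called 0 of the 9 (FDR 0.304 to 0.997).

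The factors did not pass the test inside the subtypes that carry them most. *Foxp2* in DL-Foxp2 had a log2 fold change of 0.25 (0.26), *Tshz2* in DL-Tshz2 0.01 (0.26), *Etv1* in DL-Tshz2 0.11 (0.25), *Fezf2* in DL-Tshz2 0.21 (0.37), and *Rorb* in SL-Cux2 -0.26 (0.30). With a library left out *Fezf2* ranged from -0.16 without WT replicate 2 to 0.77 without WT replicate 1, and *Rorb* from -0.52 to 0.06. *Foxp2* ranged from -0.050 to 0.48 and *Tshz2* from -0.27 to 0.26, so none of these factors kept its sign. DL-Pou3f1 had fewer than 10 cells in a library and was not tested. Over the other 6 subtypes 0 of 31 tests of members were called, as were 0 of 44783 tests of genes (0%), with 3 members and 715 genes (1.6%) at an unadjusted p under 0.05. The 3 were all lower in *Setd1a*+/- mice and in subtypes where the factor is not at its highest. *Etv1* in SL-Cux2 was 61.9 and 75.7 CPM in WT libraries and 38.8 and 28.4 CPM in *Setd1a*+/- mice (log2 fold change -1.04, standard error 0.32). *Bcl11b* in DL-Etv1 was 22.9 CPM in both WT libraries and 7.73 and 11.4 CPM in *Setd1a*+/- mice (-1.22, 0.40). *Fezf2* in DL-Nnat was 31.4 and 25.1 CPM in WT libraries and 15.1 and 14.4 CPM in *Setd1a*+/- mice (-0.93, 0.38). None passed adjustment over all genes. *Etv1* in SL-Cux2 and *Bcl11b* in DL-Etv1 lay below the PFC free RNA of the same gene in every library. *Fezf2* in DL-Nnat was at 0.579 to 1.10 of its level in free RNA. Genotypes did not overlap in 9 of the 31 tests, 4 higher and 5 lower, against 26.7% of genes, 13.2% higher and 13.5% lower.

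**Figure D5:**
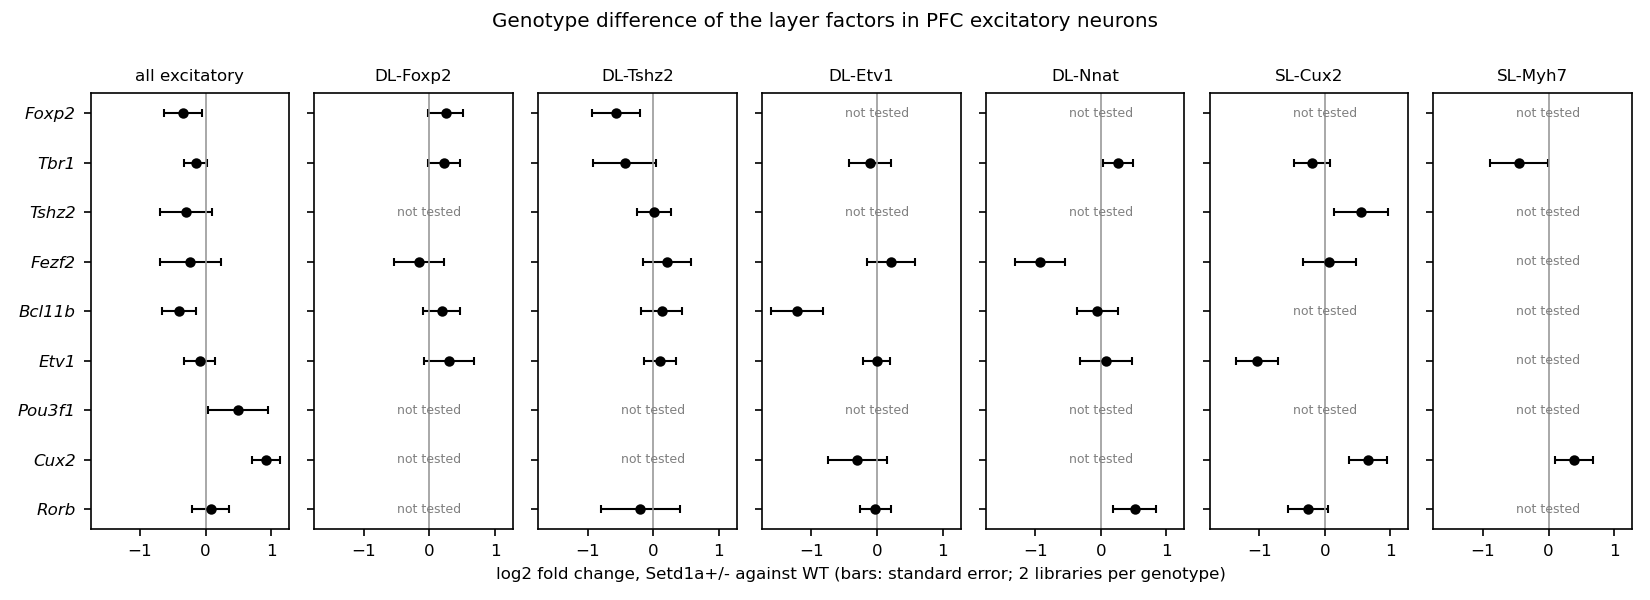
Log2 fold change between *Setd1a*+/- and WT of each factor in all PFC excitatory neurons and in each of the 6 tested subtypes, with bars of 1 standard error. No value passed the threshold, and *Cux2* in all excitatory neurons is at 0.92.

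The other PFC cell types gave 0 calls by edgeR among 16 tests of members and 39480 of genes (0%), with 1 member and 711 genes (1.8%) at an unadjusted p under 0.05. That member was *Cux2* in oligodendrocytes, 8.70 and 7.39 CPM in WT libraries and 30.6 and 12.9 CPM in *Setd1a*+/- mice (log2 fold change 1.47, standard error 0.54, not called). These levels were 0.330 to 1.18 of those in free RNA. *Etv1* in PFC oligodendrocytes was at 0.09 (0.24), *Rorb* in astrocytes at -0.06 (0.33) and *Tshz2* in endothelial cells at 0.11 (0.23).

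In the striatum, where the fold limit was 2, 0 of 49 tests of members were called by edgeR, beside 4 of 73479 tests of genes (0.00544%), with 2 members and 1922 genes (2.62%) at an unadjusted p under 0.05. *Foxp2* in D1 MSNs was at 0.17 (0.14), *Bcl11b* at -0.03 (0.14) in D1 and 0.05 (0.16) in D2 MSNs. *Etv1* in endothelial cells was 44.1 and 32.9 CPM in WT libraries and 87.6 and 51.0 CPM in *Setd1a*+/- mice (log2 fold change 0.95, standard error 0.29, FDR 0.9998 from edgeR). It was called only without *Setd1a*+/- striatum replicate 2 (1.21, FDR 0.000179 from edgeR), and with the replicate block its FDR was 0.0278 at a fold under 2. The endothelial *Etv1* levels lay below or within the range of striatal free RNA given above. *Cux2* in D1 MSNs had a log2 fold change of 0.66 (0.28), at 0.771 to 1.44 of its level in free RNA. Genotypes did not overlap in 15 of the 49 tests, 9 higher and 6 lower, against 31% of genes, 12.9% higher and 18.1% lower.

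The genotype effect did not differ between tissues past the threshold for any member, with 0 of 35 interaction tests called by edgeR and 0 of 49915 over all genes (0%), and 2 members and 1103 genes (2.21%) at an unadjusted p under 0.05. The 2 were *Etv1* in endothelial cells, with a difference of -1.55 on the log2 scale (standard error 0.49), and *Bcl11b* in OPCs, with -2.99 (1.32). The 30 other regulators of projection neurons had 0 calls in each genotype comparison by edgeR: 0 of 29 tests in excitatory neurons, 0 of 135 in the subtypes, 0 of 94 in other PFC types and 0 of 151 in the striatum, with 1, 4, 2 and 5 at an unadjusted p under 0.05.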

How the data were processed

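Single-cell counts of 8 libraries were analysed, 2 per genotype in the PFC and the striatum. The authors made the matrices with Cell Ranger 3.0.2 on mm10 and deposited raw UMI counts per gene and droplet barcode, not normalized and with empty droplets included. Their tables of annotated cells, made in Seurat 3.2.0, give each cell's library, type and UMI count, and the cells they list hold 800 or more genes and up to 9.99% mitochondrial UMIs. Gene-by-cell tables beside them were not used, because their rows are numbered and not named.

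Annotated cells were looked up by barcode with Python 3.11.15 (numpy 2.4.6, pandas 2.3.3, scipy 1.17.1, figures by matplotlib 3.10.9). UMIs were summed per library and type, which needed at least 10 cells in every library, and tested in R 4.3.3 by the quasi-likelihood method of edgeR 4.0.16, with TMM factors and a minimum count of 10 in its expression filter. FDR are Benjamini-Hochberg values over all genes tested in a type. Calls needed an FDR under 0.05 and a fold above 1.5, or above 2 between genotypes in the striatum. The interaction needed the FDR alone. Few UMIs leave a gene imprecise, and intervals cover counting error alone. A count of 0 was taken to allow 3 UMIs. Libraries pool mice, so p-values measure the spread between pools. Doublets were not called here. Alternatives were DESeq2 1.42.0, no TMM factors, no filter on low counts, each library left out, the replicate block, equal weight for each subtype and thinning to 1000 UMIs. The test without cells holding *Slc17a7* or *Neurod6* was added after seeing the data.

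Each replicate number stands for 1 WT and 1 *Setd1a*+/- library, per the study's methods. Deviations of same-numbered PFC libraries from their genotype's mean correlated across genes at a median of 0.561 (0.483 to 0.602) over the 7 subtypes. The correlation was 0.206 to 0.503 in the other PFC types and 0.0950 to 0.454 in the striatal types. The numbers thus pair the libraries in the subtypes, and less clearly in the other types. The study used no block and the main tests have none. The members, the marker and regulator lists and the tests were chosen with earlier results of these data known. Named beyond the members and *Setd1a* were, by rule, the 3 genes most like each member among those with a mean of at least 50 CPM in a type, and the regulator with the highest ratio to the next subtype at 50 CPM or more. Coordinates are from GENCODE on GRCm38, promoters from RefSeq on GRCm38.p6. The statistical steps were tested on simulated data. There the genotype test missed every 2-fold change and called most 4-fold changes, so an absence of calls does not show that a factor is unchanged.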

Additional observations from a re-analysis of the deposited data

How the results depend on the processing

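The 9 factors had 0 genotype calls under every alternative except in the striatum, where 1 was called without *Setd1a*+/- replicate 2 (range 0 to 1 with a library left out). Counts over all genes moved more. Without a filter on low counts 13 genes were called in excitatory neurons, 28 in the subtypes, 50 in other PFC types, 110 in striatal types and 26 in the interaction, and for tissue 22 members and 6957 genes. With the replicate block the numbers were 2, 11, 24, 79 and 4, and for tissue 18 members and 6222 genes. DESeq2 called 1 gene in other PFC types. With each library left out in turn, the calls ranged from 0 to 1 in excitatory neurons, 7 to 306 in the subtypes, 24 to 122 in other PFC types (306 and 122 without *Setd1a*+/- PFC replicate 2), 67 to 402 in striatal types (402 without *Setd1a*+/- replicate 1), 1901 to 4444 for tissue (1901 without WT PFC replicate 1) and 0 to 4 for the interaction. The causes were not tested. In these fits the lone library of a genotype is assumed to vary like the other.

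For 40 single-gene results, 389 values under an alternative were compared: 353 kept direction and side of the threshold, 10 lost the call, 2 gained it and 24 changed sign, the latter all uncalled genotype values. The tissue calls of *Foxp2* in endothelial cells and *Bcl11b* in OPCs, gained with the replicate block, lie outside the 40. With equal weight for each subtype the log2 ratios were 0.053 (*Tbr1*), 0.023 (*Tshz2*), 0.13 (*Foxp2*), 0.044 (*Fezf2*), 0.0020 (*Etv1*) and -0.18 (*Rorb*). Those of *Bcl11b* and *Pou3f1* were -0.16 and 0.75, against -0.42 and 0.55 with the cells as captured. With libraries left out, values in excitatory neurons ranged from -0.76 to 0.38 (*Tshz2*), -0.99 to 0.26 (*Fezf2*), -0.29 to 0.15 (*Etv1*) and -0.35 to 0.40 (*Rorb*). They ranged from -0.050 to 0.48 for *Foxp2* in DL-Foxp2, -0.27 to 0.26 for *Tshz2* in DL-Tshz2, -0.12 to 0.10 for *Etv1* in DL-Etv1, -0.059 to 0.26 and -0.38 to 0.23 for *Etv1* in PFC and striatal oligodendrocytes, and -0.070 to 0.18 for *Bcl11b* in D2 MSNs. *Tshz2* in DL-Tshz2 was -0.0044 without the filter, -0.0053 in DESeq2 and -0.017 with the replicate block, and *Etv1* in DL-Etv1 0.0026 in DESeq2. *Etv1* in oligodendrocytes was called between the tissues, lower in the PFC, only without *Setd1a*+/- striatum replicate 2 (-0.69, FDR 0.0352 from edgeR).

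Depth limits the shares of cells. After thinning to 1000 UMIs they were 25.2% (*Foxp2* in DL-Foxp2), 22.6% (*Tbr1* in DL-Foxp2), 84.9%, 18.9% and 59.2% (*Tshz2*, *Fezf2* and *Etv1* in DL-Tshz2), 12.6% and 2.86% (*Bcl11b* and *Pou3f1* in DL-Pou3f1), 13.3% (*Cux2* in SL-Myh7) and 22.7% (*Rorb* in SL-Cux2). Joint detection was 5.92% for *Foxp2* with *Tbr1*, 3.9% for *Foxp2* with *Bcl11b*, 50% for *Tshz2* with *Etv1*, 15.8% for *Tshz2* with *Fezf2*, 1.92% for *Cux2* with *Rorb*, 0.0360% for *Bcl11b* with *Cux2* and 0% for *Bcl11b* with *Rorb*.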
